A study of Mus musculus with 12 samples.

Results

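The genes described here encode histones, the proteins around which DNA is wrapped. The members were the protein-coding genes of the table whose names start with Hist and a digit, or with H2af, H3f or H1f. There were 49 among the 11669 genes of the table, of which 10185 are protein-coding. The 39 Hist genes are called clustered here, and the other 10 are called replacement genes. Of the clustered genes 34 lie on chromosome 13, 4 on chromosome 3 and 1 on chromosome 6, and they code for H1 (6 genes), H2A (7), H2B (8), H3 (7) and H4 (11). RNA was sequenced in 12 mouse libraries, 3 in each of 4 groups named by their treatment for 24 h with NP@M, NP-D@MP, NP-D@M or PBS. The 6 libraries of NP-D@M and NP-D@MP are called those with D, and the other 6 those without. Levels are in FPKM, fragments scaled to gene length and library size. All groups share the tissue marrow, the cell type immune cell and the name TAMC under the cell line tag, while the extraction text of the same records speaks of retinas. The series concerns nanodrugs coated with an engineered cancer cell membrane that are aimed at cyclin-dependent kinases. The labels do not spell out NP, D, M, P or TAMC, give no age or strain, and do not say whether the libraries of a group came from separate cultures or animals. P-values therefore measure only the spread between these libraries, which may be technical.

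Core histones H2A, H2B, H3 and H4 form the nucleosome, and linker histone H1 binds where DNA enters and leaves it. Replication-dependent histone genes sit in clusters, lack introns and are expressed mainly in S phase, when new DNA is packed. Their mRNAs usually end in a short stem-loop in place of a poly(A) tail, and the stem-loop binding protein Slbp holds that end. Replacement histone genes lie singly, mostly carry introns, give polyadenylated mRNA and are expressed through the cell cycle and in cells that no longer divide. Some clustered genes also give polyadenylated mRNA, above all in cells that have left the cell cycle. Per the labels an Illumina TruSeq RNA kit was used on total RNA, and the labels do not say whether polyadenylated RNA was selected.

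Since the stem-loop sets the classes apart, it was searched for in the GENCODE M21 transcripts of every member. The search took the sense strand and 16 bases that start with GG, with perfectly pairing arms of 6 bases and a loop of 4 bases that starts with TT and ends with C or T. Of the 39 clustered genes 26 (66.7%) held a match, against 0 of the 10 replacement genes and 85 (0.388%) of the 21901 protein-coding genes of the annotation. The matches had the 5 forms printed here, with the pairing arms in capitals and the loop in lower case.
form in 15 genes of types H1, H2A, H2B and H3, among them Hist1h1c and Hist1h1e: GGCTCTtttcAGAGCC
form in 6 H4 genes, among them Hist1h4n: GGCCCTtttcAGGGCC
form in Hist1h4i and Hist2h4: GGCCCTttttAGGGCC
form in Hist1h4b and Hist1h4j: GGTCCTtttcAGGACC
form in Hist2h2ac: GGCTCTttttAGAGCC
All 26 lie 21 to 54 bases after the stop codon. In 15 of the 26 genes the annotated transcript runs over 100 bases past the stem-loop, for instance by 840 bases in Hist1h1c, 330 in Hist1h4i and 2445 in Hist4h4. No match was found in Hist1h2bc, the clustered gene with the second highest mean FPKM, which says only that these letters are not in its annotated transcript. A match is a description and not a site shown to be used.

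Promoters from 250 bases before to 50 after the start, from RefSeq on GRCm38.p6, matched 43 of the 49 members (34 clustered and 9 replacement). CCAAT, searched on both strands like the other motifs, was in 79.4% of clustered, 66.7% of replacement and 37.4% of all 32851 promoters of this length. Within the clustered genes it was in 100% of the H1, H2A, H2B and H3 promoters and in 30% of the 10 H4 promoters. TATAAA was in 61.8% of clustered, 11.1% of replacement and 13.6% of all promoters. The octamer ATTTGCAT was in 57.1% of the 7 H2A and 33.3% of the 6 H2B promoters, and in 1.74% of all. None of these motifs contains another, although their ends can overlap, and a match is a description only. Hist1h2bc was among the members without a matched promoter. Promoters of some of the genes named below are printed with matches on either strand in capitals, while others, such as those of H1f0 and Hist1h4n, are not printed.
Hist1h1c (chr13:23738557-23738856, plus strand): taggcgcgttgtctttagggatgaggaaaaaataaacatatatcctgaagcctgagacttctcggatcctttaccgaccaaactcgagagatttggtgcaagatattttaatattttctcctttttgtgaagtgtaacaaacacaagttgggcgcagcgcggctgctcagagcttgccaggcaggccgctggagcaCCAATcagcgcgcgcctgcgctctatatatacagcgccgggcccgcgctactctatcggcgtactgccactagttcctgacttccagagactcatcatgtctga
Hist1h4i (chr13:22041313-22041612, minus strand): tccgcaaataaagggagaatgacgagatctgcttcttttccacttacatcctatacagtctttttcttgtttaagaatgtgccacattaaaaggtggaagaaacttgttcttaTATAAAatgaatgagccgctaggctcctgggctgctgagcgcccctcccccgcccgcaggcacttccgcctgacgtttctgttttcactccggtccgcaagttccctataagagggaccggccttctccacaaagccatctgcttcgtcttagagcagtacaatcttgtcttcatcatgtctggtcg
Hist1h2bg (chr13:23571150-23571449, plus strand): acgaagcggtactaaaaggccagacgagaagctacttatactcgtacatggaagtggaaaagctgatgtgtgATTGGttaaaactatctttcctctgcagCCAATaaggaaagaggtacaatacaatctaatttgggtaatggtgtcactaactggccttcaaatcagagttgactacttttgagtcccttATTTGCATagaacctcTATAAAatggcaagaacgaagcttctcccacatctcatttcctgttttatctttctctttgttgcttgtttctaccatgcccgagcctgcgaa
H3f3b (chr11:116024455-116024754, minus strand): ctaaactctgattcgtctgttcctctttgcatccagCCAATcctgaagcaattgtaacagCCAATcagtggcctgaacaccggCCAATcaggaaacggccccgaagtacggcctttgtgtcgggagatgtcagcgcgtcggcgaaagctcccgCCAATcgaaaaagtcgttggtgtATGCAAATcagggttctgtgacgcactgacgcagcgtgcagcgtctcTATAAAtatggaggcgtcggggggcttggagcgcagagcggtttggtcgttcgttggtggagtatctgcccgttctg
H3f3a (chr1:180813556-180813855, minus strand): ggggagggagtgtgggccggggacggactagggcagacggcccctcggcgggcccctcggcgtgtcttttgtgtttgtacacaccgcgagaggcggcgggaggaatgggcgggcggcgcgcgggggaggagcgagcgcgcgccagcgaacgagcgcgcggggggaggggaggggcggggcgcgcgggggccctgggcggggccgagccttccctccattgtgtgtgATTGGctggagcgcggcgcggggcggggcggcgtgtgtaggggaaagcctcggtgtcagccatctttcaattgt
The Hist1h2bg window overlaps that of Hist1h2ae on the other strand (chr13:23571171-23571470, minus strand), so that both genes share all of its motif matches. H3f3b holds 4 matches to CCAAT and 1 each to the octamer and to TATAAA, while H3f3a, which encodes the same H3.3 protein, holds 1 match to CCAAT and none to the others.

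The recovered reads, that is the FPKM values turned back into whole reads by gene length, came to between 14.4 M and 17.3 M per library. The FPKM values imply library sizes of 31.6 M to 38.1 M in PBS and NP@M and of 7.84 M to 8.87 M in NP-D@M and NP-D@MP, so that a factor between libraries is part of the deposited values. Scaling to the read totals instead moves a log2 ratio of FPKM means by about -2.17 for NP-D@M against NP@M and by about -2.24 for NP-D@MP against PBS. Changes on the scale of log2(FPKM + 1), used below, move less where levels are low, and their median over all tested genes went from 0.16 to -1.43 and from 0.13 to -1.44. Which scaling reflects the amount of RNA per cell was not tested, and in bulk samples fewer cells of a type and less RNA per cell cannot be told apart. Results are therefore given as deposited and with read totals, and ratios between genes within a library, which no scaling moves, are given first. Among the libraries without D, PBS replicate 3 and NP@M replicate 2 were unlike the rest, with 9.31% and 9.11% of genes at 0 reads where the other 4 had 2.65% to 2.96%. Nothing states how the table's genes were chosen, and most of its genes differ between libraries with and without D in the name. Shares of all genes given beside the members hold within this table only.

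Within each library, the summed FPKM of the 39 clustered genes was higher relative to that of the 10 replacement genes where the treatment name carried D. The ratio of these sums was 0.263, 0.255 and 0.324 under PBS and 0.199, 0.299 and 0.245 under NP@M. It was 1.27, 1.13 and 0.994 under NP-D@M and 1.54, 1.07 and 1.03 under NP-D@MP. The 6 libraries with D were thus all above the 6 without, and the groups within each set overlapped. On the log2 scale the ratio was -2.03 ± 0.293 (SD, n = 3) for NP@M and 0.17 ± 0.177 for NP-D@M, and -1.84 ± 0.189 for PBS and 0.25 ± 0.321 for NP-D@MP. No test was made on a sum over members, and with 3 against 3 libraries an exact permutation test cannot go below 0.1. As shares of recovered reads, clustered genes took 0.0161% to 0.0278% without D and 0.0257% to 0.0398% with D, while replacement genes took 0.0958% to 0.189% without and 0.0505% to 0.0872% with it. The single gene Hist1h1c held 79.2% to 89.4% of the clustered FPKM without D and 47.8% to 62.4% with it. H3f3b held 37.3% to 52.7% of the replacement FPKM without D and 5.99% to 12.7% with it, so that 1 gene weighs heavily on each sum.

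**Figure D1:**
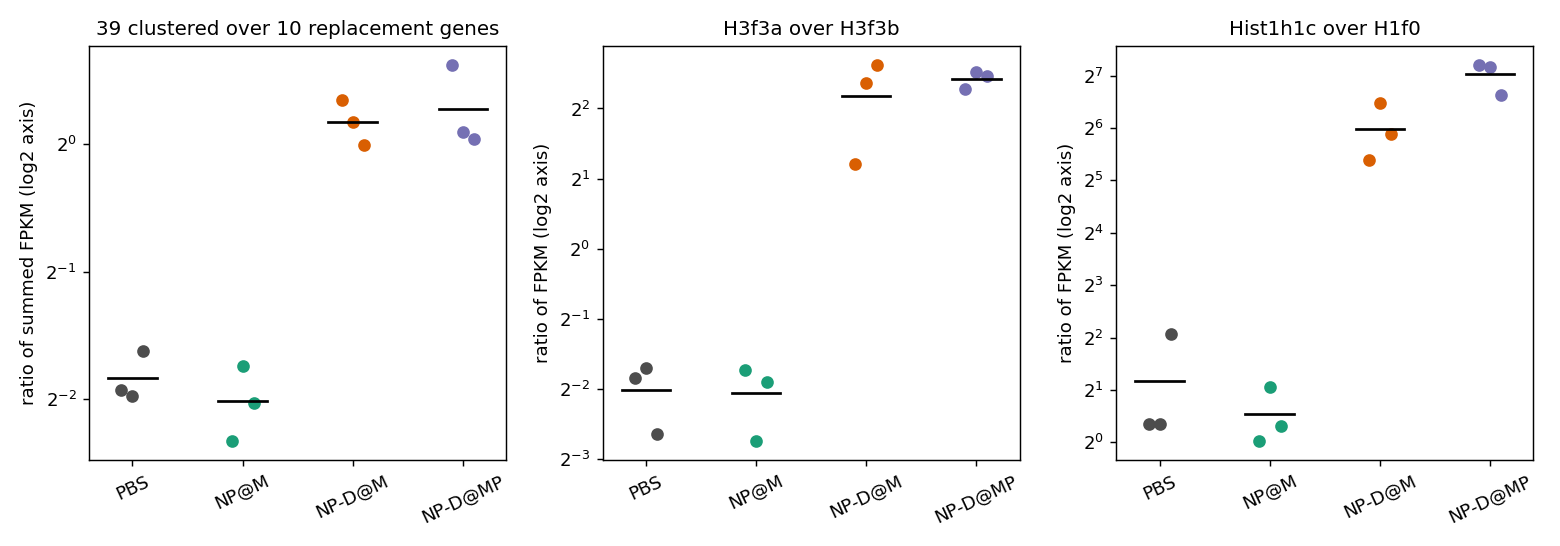
Ratios within each library on log2 axes, with 1 point per library and a bar at the mean of the 3 libraries of a group: summed FPKM of 39 clustered over 10 replacement genes (left), H3f3a over H3f3b (middle) and Hist1h1c over H1f0 (right). In each panel the 6 libraries of NP-D@M and NP-D@MP lie above the 6 of PBS and NP@M.

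Some single pairs of genes with related products shifted in the same libraries, while H2afz over H2afv, given last, did not. H3f3a over H3f3b was 0.278, 0.308 and 0.1601 under PBS, 0.302, 0.1498 and 0.267 under NP@M, 2.31, 5.13 and 6.16 under NP-D@M and 4.85, 5.76 and 5.501 under NP-D@MP. The order of these 2 genes for H3.3 was therefore inverted, with H3f3b the higher without D and H3f3a the higher with it. For the linker histones, Hist1h1c over H1f0 was 1.27, 1.28 and 4.22 under PBS, 1.02, 2.09 and 1.24 under NP@M, 41.7, 89.7 and 59.04 under NP-D@M and 148, 144 and 99.7 under NP-D@MP. Between 2 H2A variants, H2afz over H2afx was 1.805, 1.97 and 6.63 under PBS, 1.71, 4.74 and 1.68 under NP@M, 18.6, 21.8 and 28.4 under NP-D@M and 9.61, 34.7 and 18.3 under NP-D@MP. In PBS and NP@M the libraries highest in the last 2 ratios and lowest in the first were PBS replicate 3 and NP@M replicate 2. Without them the range without D was narrower and still lay below every library with D. The ratio of H2afz to H2afv, which encode close relatives, overlapped, at 4.02 to 11.4 without D and 4.71 to 11.8 with D.

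Counted over all 39 clustered genes whatever their level, the group mean was higher in NP-D@M than in NP@M for 39. The 3 values of NP-D@M lay above the 3 of NP@M without overlap for 31 of the 39 (79.5%), against 38.7% of all genes of the table. With read totals the mean was higher for 37, and 24 (61.5%) did not overlap, against 10.7% of all genes. NP-D@MP against PBS gave 39 higher means and 31 without overlap (79.5%, against 37.5% of all genes), and with read totals 36 higher means and 24 without overlap (61.5%, against 8.78%). Only Hist2h2be, named after its values were seen, lay lower without overlap with read totals in both comparisons, against 63.7% and 62.7% of all genes. As deposited no clustered gene lay lower without overlap, against 48.4% of all genes in NP-D@M against NP@M and 46.3% in NP-D@MP against PBS. The 10 clustered genes at 0 reads in all of NP@M and the 7 in all of PBS could not lie lower, and any read with D made their mean higher. Of the 10 replacement genes, 5 lay higher and 3 lower without overlap in NP-D@M against NP@M, and 4 higher and 2 lower in NP-D@MP against PBS. With read totals 0 of the 10 lay higher and 5 lower in each of these comparisons. As deposited the replacement genes lay lower less often than the 48.4% and 46.3% of all genes. As there are only 10 such genes, no result about the class is read from these counts.

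By group, 3 of the 39 clustered genes had a mean of at least 1 FPKM in PBS and 3 in NP@M, against 26 under NP-D@M and 28 under NP-D@MP. All 3 libraries were at 0 reads for 7 of the 39 in PBS and for 10 in NP@M, and for 0 in each group with D. At most 5 of the 39 genes had 0 reads in a library with D, and 12 to 29 in a library without. The highest of these counts of genes at 0 were 29 in PBS replicate 3 and 25 in NP@M replicate 2. Genes were tested with limma on log2(FPKM + 1), where at least 3 libraries reached 1 FPKM, and 27 of the 39 clustered genes passed. For 24 of those 27, fewer than 3 of the 6 libraries without D reached that minimum, so they entered through the libraries in which they were high. Their calls (adjusted p under 0.05, Benjamini-Hochberg over 8615 genes) are given as a description for that reason. In NP-D@M against NP@M limma called 26 of the 27 higher and 0 lower, where 45.2% of all tested genes were called higher and 46% lower. NP-D@MP against PBS gave 27 higher and 0 lower, where 45.7% and 45.8% of all were called. Read totals let 19 clustered genes pass, of which 15 were called higher and 1 lower in each comparison, where 8.07% of all were called higher in each and 67.1% and 67.7% lower. As the filter itself favours genes that are high with D, nothing is read from these counts. The counts without overlap given above need no such filter, but cover only 39 of the 67 clustered genes of GENCODE M21. How the table's genes were chosen is not stated. Hist1h1t, Hist1h2ai, Hist1h3f and Hist1h4b had reads only in libraries with D. Genes at 0 reads in all of NP@M or PBS could not lie lower, so the absence of lower genes is partly fixed in advance. Without PBS replicate 3 and NP@M replicate 2, limma called 24 clustered genes higher in NP-D@M against NP@M and 25 in NP-D@MP against PBS, with 0 lower in either. The share of all genes called in that fit is not given here and the same filter applies, so nothing is read from these counts either.

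Among the linker histones, Hist1h1c (chr13:23738808-23740367, plus strand) encodes a main somatic H1 and had the highest mean of all clustered genes. It stood at 66.9, 53.1 and 43.4 FPKM under PBS, 41.5, 38.6 and 50.5 under NP@M, 239.5, 200.3 and 194 under NP-D@M and 313, 232 and 339 under NP-D@MP. All libraries with D were above all without, and the log2 fold change of NP-D@M against NP@M was 2.26 ± 0.221 (SE, as for every change below), with limma's adjusted p = 3.19e-06. With read totals this change was 0.12 (limma, adjusted p = 0.673) and after quantile normalization 0.06, and the call was lost in both. It was kept with equal medians and with voom on recovered reads, so the call depends on the scaling chosen. Hist1h1e (chr13:23620629-23622558, minus strand), another somatic H1, stood at 0.151, 0.109 and 0.328 FPKM under PBS, 0.0293, 0.206 and 0.0413 under NP@M, 11.7, 8.13 and 5.72 under NP-D@M and 8.36, 10.1 and 13.3 under NP-D@MP. It was near 0 in every library without D and above 5 FPKM in every library with it. Its change was 3.08 ± 0.234 (limma, adjusted p = 6.02e-07), and 2.14 with read totals (limma, adjusted p = 1.03e-05). In reads it had 2, 14 and 3 under NP@M against 195, 123 and 98 under NP-D@M. The 6 clustered H1 genes summed to 39.5 to 67.3 FPKM without D and 206 to 368 with it. Hist1h1t, the testis type of H1, had 0 reads in all 6 libraries without D, and its groups overlapped in both comparisons.

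Of the H2A genes, Hist1h2ae (chr13:23570517-23571220, minus strand) and Hist1h2ao (chr13:21810465-21810944, plus strand) had the highest means. Hist1h2ae stood at 0.289, 0.261 and 0 FPKM under PBS, 0.161, 0 and 0.3397 under NP@M, 1.97, 3.98 and 3.36 under NP-D@M and 4.39, 5.58 and 4.88 under NP-D@MP. Every library with D was above every one without, and its change was 1.79 ± 0.207 (limma, adjusted p = 1.15e-05), or 0.93 with read totals (limma, adjusted p = 0.00608). Hist1h2ao had 0, 1 and 0 reads under PBS, 0, 0 and 0 under NP@M, 17, 5 and 2 under NP-D@M and 11, 8 and 5 under NP-D@MP. Taking a floor of 3 reads per library for NP@M, its mean FPKM in NP-D@M was at least 11.3-fold higher as deposited and at least 2.60-fold higher with read totals. As 93.5% of its 50-base stretches also occur in other genes, this value is uncertain. Together the 7 clustered H2A genes summed to 0 to 0.533 FPKM without D and 5.03 to 12.3 with it.

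Hist1h2bc (chr13:23684199-23692908, plus strand), an H2B gene, stood at 5.68, 5.899 and 1.15 FPKM under PBS, 5.75, 2.61 and 5.26 under NP@M, 84.9, 89.8 and 71.3 under NP-D@M and 85.8, 85.1 and 89.5 under NP-D@MP. Values with D lay close together, and PBS replicate 3 was the lowest without D. The change in NP-D@M against NP@M was 3.95 ± 0.401 (limma, adjusted p = 4.49e-06), and 1.97 with read totals (limma, adjusted p = 0.00332). In reads, before any scaling, it had 235, 106 and 229 under NP@M and 848, 814 and 731 under NP-D@M. The read totals of these libraries were alike (15.1 M to 16.8 M), so reads set side by side are close to the scaling by read totals. Hist1h2bg (chr13:23571396-23572013, plus strand), which shares its promoter region with Hist1h2ae, stood at 0.564, 0.424 and 1.84 FPKM under PBS, 0.229, 0.736 and 0.473 under NP@M, 3.37, 5.78 and 5.84 under NP-D@M and 4.63, 3.18 and 3.91 under NP-D@MP. Its groups did not overlap, with a change of 2.0 ± 0.2796 (limma, adjusted p = 4.99e-05). Read totals gave 0.78, with adjusted p = 0.0529 in limma, and in NP-D@MP against PBS 0.01. Hist2h2be, an H2B gene on chromosome 3, had 75, 48 and 87 reads under NP@M and 34, 33 and 42 under NP-D@M. Its change was 0.61 ± 0.1395 as deposited (limma, adjusted p = 0.001695) and -0.54 with read totals (limma, adjusted p = 0.00524), and its direction turned with the scaling. None of its 50-base stretches occur in other genes.

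The H3 genes with the highest means were Hist1h3e (chr13:23561534-23562369, minus strand) and Hist1h3i (chr13:21782960-21783370, minus strand). Hist1h3e stood at 0.139, 0.282 and 0 FPKM under PBS, 0, 0 and 0.0954 under NP@M, 6.92, 5.34 and 5.53 under NP-D@M and 3.01, 12.3 and 12.2 under NP-D@MP, and Hist1h3i at 0, 0.128 and 0 FPKM under PBS, 0.344, 0 and 0.129 under NP@M, 4.504, 6.83 and 11.5 under NP-D@M and 7.79, 4.48 and 7.11 under NP-D@MP. Both were below 0.5 FPKM in every library without D and above 3 in every library with it. Their changes in NP-D@M against NP@M were 2.74 ± 0.376 and 2.82 ± 0.281 (limma, adjusted p = 4.35e-05 and 3.80e-06), and 1.93 and 1.83 with read totals (limma, adjusted p = 4.25e-04 and 1.60e-04). Of their 50-base stretches, 73.4% and 87.6% also occur in other genes. All 7 clustered H3 genes together summed to 0 to 1.119 FPKM without D and 14.9 to 28.1 with it.

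Among the H4 genes, Hist1h4n and Hist1h4i had the highest means. Hist1h4n (chr13:21831767-21832196, minus strand) stood at 0.2704, 0.305 and 0 FPKM under PBS, 0, 1.85 and 0 under NP@M, 27.4, 18.98 and 23.3 under NP-D@M and 13.03, 20.8 and 58.5 under NP-D@MP. NP@M replicate 2 was the only library without D above 0.5 FPKM, and NP-D@MP replicate 3 was the highest. Its change in NP-D@M against NP@M was 4.08 ± 0.508 (limma, adjusted p = 2.07e-05), or 2.90 with read totals (limma, adjusted p = 0.00167). As 85.6% of the 50-base stretches of Hist1h4n also occur in other genes, its values are uncertain. Hist1h4i (chr13:22040636-22041362, minus strand) stood at 3.599, 2.35 and 0.479 FPKM under PBS, 1.63, 1.49 and 1.06 under NP@M, 30.4, 20.7 and 19.7 under NP-D@M and 18.6, 28.7 and 54.2 under NP-D@MP. Again NP-D@MP replicate 3 was the highest library, and the groups with D did not overlap with those without. The change was 3.34 ± 0.433 (limma, adjusted p = 2.79e-05), or 1.63 with read totals (limma, adjusted p = 0.0136). Hist4h4, the single clustered gene on chromosome 6, had 0, 0 and 0 reads under NP@M and 107, 51 and 71 under NP-D@M. Against a floor of 3 reads per library its mean was at least 107.6-fold higher as deposited and at least 24.3-fold higher with read totals. For Hist1h4c, at 0 reads in NP@M and at 52, 42 and 59 under NP-D@M, the bounds were at least 72.1-fold and at least 16.1-fold higher. The choice to name Hist4h4 and Hist1h4c came after seeing their values. The summed FPKM of the 11 H4 genes was 0.534 to 4.55 without D and 46.6 to 182 with it.

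**Figure D2:**
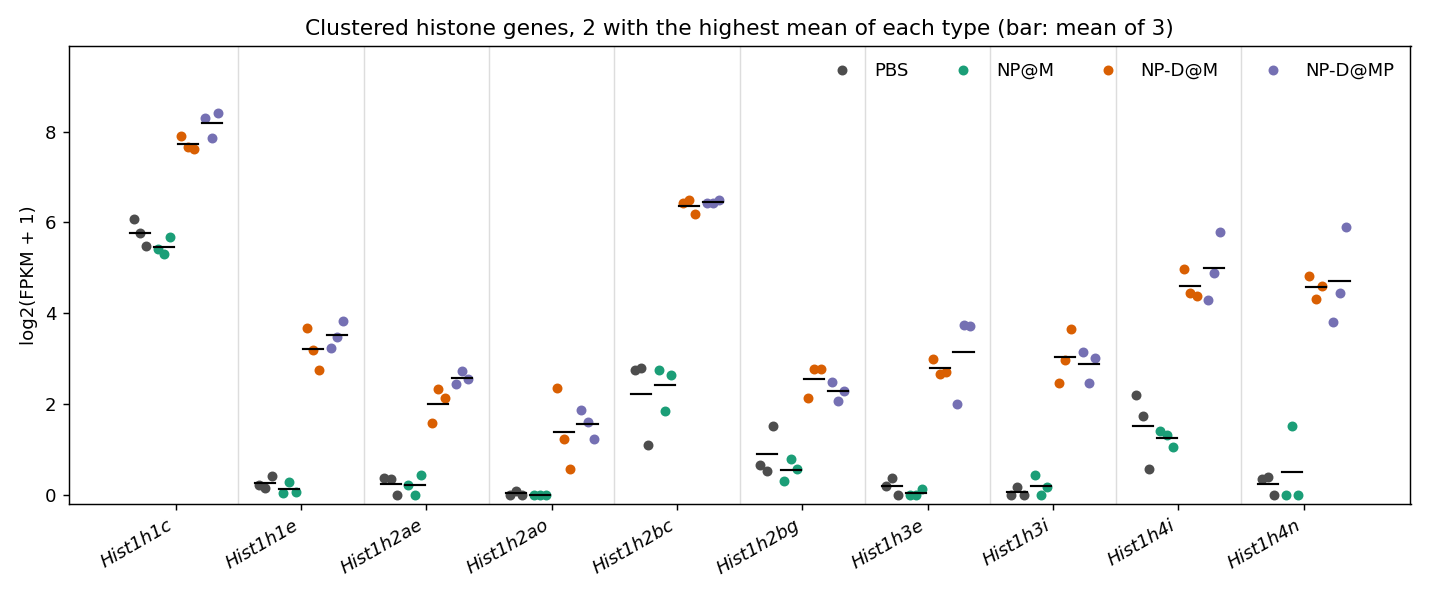
Level of the 2 clustered genes with the highest mean in each of the types H1, H2A, H2B, H3 and H4, as log2(FPKM + 1) with 1 point per library, coloured by group, and a bar at the mean of 3. For each of the 10 genes the NP-D@M and NP-D@MP points lie above the NP@M points, and Hist1h1c has the highest values in every group.

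Many clustered genes are near-identical copies, and how the authors' counting split shared reads is not given in the sources used here. Of the 39 clustered genes, 14 had over 50% of their 50-base stretches also in other genes of the annotation, 8 had under 10% and 4 had none. No replacement gene had over 50%, and 8 of 10 had under 10%. Among the 8 clustered genes with under 10%, 7 lay higher without overlap in NP-D@M against NP@M and 6 in NP-D@MP against PBS. With read totals these numbers were 4 and 3 of 8. Of all genes in the table, 38.7% and 37.5% lay higher without overlap in these comparisons as deposited, and 10.7% and 8.78% with read totals. Of the 15 stem-loop genes whose annotated transcript runs over 100 bases past the stem-loop, 10 lay higher without overlap with read totals in NP-D@M against NP@M, and of the 11 with a shorter transcript 6 did. In NP-D@MP against PBS the counts were 9 of 15 and 9 of 11, and the same 10.7% and 8.78% of all genes stand beside these pairs of counts. Their median FPKM was 0.0923 under NP@M and 2.61 under NP-D@M for the longer transcripts, and 0.0181 and 0.981 for the shorter.

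The replacement genes, of which all 10 were tested, held calls in both directions, as did all genes. In NP-D@M against NP@M limma called 4 higher and 3 lower as deposited, where 45.2% and 46% of all tested genes were called, and with read totals 0 higher and 5 lower, where 8.07% and 67.1% were. NP-D@MP against PBS gave 5 higher and 3 lower (45.7% and 45.8% of all), and 0 and 5 (8.07% and 67.7%). As there are only 10 genes, these counts are no result about the replacement genes as a class. Without PBS replicate 3 and NP@M replicate 2 the counts as deposited were 4 and 4, and 5 and 4, and the share of all genes in that fit is not given here. The median change of the replacement genes in NP-D@M against NP@M was 0.83, and -0.93 with read totals, against 0.16 and -1.43 over all tested genes. H3f3b (chr11:116021912-116027962, minus strand) encodes H3.3, the H3 variant deposited outside replication, and stood at 113, 103 and 78.9 FPKM under PBS, 104, 78.2 and 104 under NP@M, 47.3, 25.8 and 27.6 under NP-D@M and 21.98, 27.6 and 40.3 under NP-D@MP. All libraries with D were below all without. Its change was -1.52 ± 0.286 (limma, adjusted p = 4.46e-04), and -3.64 with read totals (limma, adjusted p = 7.28e-07). H3f3a (chr1:180800832-180813943, minus strand), the other gene for the same protein, stood at 31.5, 31.6 and 12.6 FPKM under PBS, 31.5, 11.7 and 27.7 under NP@M, 109, 132 and 170.4 under NP-D@M and 107, 159 and 222 under NP-D@MP. PBS replicate 3 and NP@M replicate 2 were the lowest libraries. Its change was 2.57 ± 0.439 (limma, adjusted p = 2.22e-04), but 0.46 with read totals (limma, adjusted p = 0.386) and 0.81 after quantile normalization. H3f3b fell under every scaling tried. The rise of H3f3a passed the test as deposited, with equal medians and with voom on recovered reads, and not with read totals or quantile normalization. In NP-D@MP against PBS the changes were -1.71 ± 0.286 for H3f3b and 2.69 ± 0.439 for H3f3a (limma, adjusted p = 1.90e-04 and 1.61e-04).

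Of the H2A variants, H2afz (chr3:137864487-137866922, plus strand) encodes H2A.Z, found at promoters and enhancers, and had the highest mean. It stood at 33.2, 29.2 and 27.4 FPKM under PBS, 30.02, 27.7 and 27.1 under NP@M, 130.3, 122 and 104 under NP-D@M and 89.8, 132 and 148 under NP-D@MP. Every library with D was above every one without, with a change of 2.03 ± 0.204 (limma, adjusted p = 3.89e-06). With read totals the change was -0.10 (limma, adjusted p = 0.668) and the groups overlapped. H2afv (chr11:6427229-6444443, minus strand), which encodes a close relative of H2A.Z, stood at 8.26, 4.93 and 3.58 FPKM under PBS, 5.08, 2.44 and 4.56 under NP@M, 11.1, 15.5 and 12.5 under NP-D@M and 19.1, 17.4 and 18.8 under NP-D@MP. Its groups with and without D did not overlap, with a change of 1.51 ± 0.279 (limma, adjusted p = 3.90e-04), or -0.38 with read totals. MacroH2A genes moved apart. H2afy (chr13:56073619-56136361, minus strand) stood at 14.1, 11.3 and 10.7 FPKM under PBS, 12.6, 11.4 and 12.3 under NP@M, 33.8, 34.9 and 34.6 under NP-D@M and 44.1, 35.8 and 46.7 under NP-D@MP, and H2afy2 (chr10:61738665-61784147, minus strand) at 2.94, 2.44 and 1.21 FPKM under PBS, 2.52, 2.61 and 2.47 under NP@M, 0.266, 0.469 and 0.207 under NP-D@M and 0.368, 2.03 and 0.818 under NP-D@MP. H2afy rose by 1.44 ± 0.164 as deposited (limma, adjusted p = 1.00e-05) and changed by -0.63 with read totals (limma, adjusted p = 0.00521), while the change of H2afy2 was -1.43 ± 0.2799 (limma, adjusted p = 5.83e-04) and -2.58 with read totals. In NP-D@MP against PBS H2afy2 changed by -0.66 ± 0.2799 with adjusted p = 0.0414 in limma. That call was lost without PBS replicate 1 (-0.49, adjusted p = 0.145 in limma), PBS replicate 2 (-0.59, 0.109), NP-D@MP replicate 1 (-0.40, 0.179) or NP-D@MP replicate 3 (-0.61, 0.101).

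H2afx (chr9:44334694-44336077, plus strand) encodes H2A.X, which is phosphorylated at DNA breaks, and stood at 18.4, 14.8 and 4.14 FPKM under PBS, 17.6, 5.85 and 16.1 under NP@M, 7.02, 5.62 and 3.66 under NP-D@M and 9.34, 3.81 and 8.08 under NP-D@MP. PBS replicate 3 and NP@M replicate 2 were the lowest without D and overlapped with the libraries with D. Its change in NP-D@M against NP@M was -1.05 ± 0.531 (limma, adjusted p = 0.0795), and without NP@M replicate 2 it was -1.51 (limma, adjusted p = 0.0202). Read totals gave -2.94 (limma, adjusted p = 6.56e-04). In NP-D@MP against PBS it was -0.60 ± 0.531 (limma, adjusted p = 0.288), and -1.19 without PBS replicate 3 (limma, adjusted p = 0.0274). H2afj (chr6:136808244-136810074, plus strand), an H2A variant gene of mammals, stood at 24.8, 15.3 and 0.622 FPKM under PBS, 14.05, 1.09 and 7.76 under NP@M, 26.03, 28.4 and 32.1 under NP-D@M and 24.5, 51.9 and 178 under NP-D@MP. The groups NP@M and NP-D@M did not overlap, while PBS spanned 0.622 to 24.8 FPKM and NP-D@MP 24.5 to 178, which overlap. The change in NP-D@M against NP@M was 2.19 ± 1.04 (limma, adjusted p = 0.0629) and, without NP@M replicate 1, 2.80 (limma, adjusted p = 0.0379). In NP-D@MP against PBS it was 2.82 ± 1.04 (limma, adjusted p = 0.0229), but 1.60 without PBS replicate 3 and 2.06 without NP-D@MP replicate 3 (limma, adjusted p = 0.0904 and 0.0974), so single libraries decide this call. With read totals the change of H2afj was 0.27 and 0.84 in the same comparisons.

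Among the libraries without D, both replacement linker histones were lowest in PBS replicate 3 and NP@M replicate 2. H1f0 (chr15:79028450-79030504, plus strand) encodes H1.0, a linker histone that accumulates in differentiated cells, and stood at 52.8, 41.6 and 10.3 FPKM under PBS, 40.6, 18.5 and 40.9 under NP@M, 5.74, 2.23 and 3.29 under NP-D@M and 2.11, 1.61 and 3.402 under NP-D@MP. Even the lowest library without D, PBS replicate 3, was above all libraries with D. The change was -2.83 ± 0.543 in NP-D@M against NP@M (limma, adjusted p = 5.10e-04) and -3.17 ± 0.543 in NP-D@MP against PBS (limma, adjusted p = 2.27e-04). Read totals gave -4.69 and -4.96 (limma, adjusted p = 1.79e-05 and 1.13e-05), so H1f0 fell under both scalings. H1fx (chr6:87980421-87981637, minus strand), the gene of another linker histone, stood at 5.04, 3.79 and 0.1299 FPKM under PBS, 4.18, 0.374 and 3.25 under NP@M, 2.85, 3.67 and 1.67 under NP-D@M and 7.24, 3.03 and 6.79 under NP-D@MP. Its groups overlapped in both comparisons. The change was 0.22 ± 0.641 in NP-D@M against NP@M (limma, adjusted p = 0.741), and -0.37 without NP@M replicate 2 (limma, adjusted p = 0.570). In reads H1fx had 180, 16 and 149 under NP@M and 30, 35 and 18 under NP-D@M, so that NP@M replicate 2 was near the libraries with D.

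**Figure D3:**
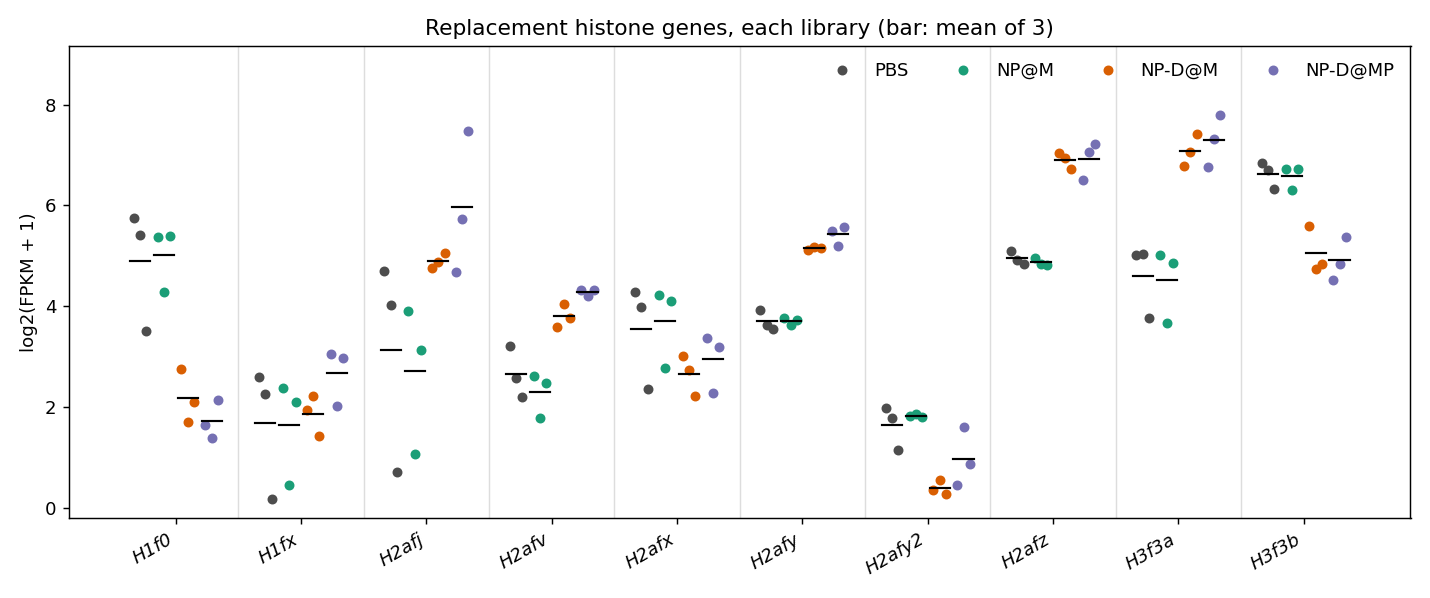
Level of the 10 replacement genes as log2(FPKM + 1), 1 point per library coloured by group, with a bar at the mean of 3. H3f3b and H1f0 are lower, and H2afz, H2afy, H2afv and H3f3a higher, in all 6 libraries of NP-D@M and NP-D@MP than in the 6 of PBS and NP@M, and H2afj and H1fx show 1 very low library in each of PBS and NP@M.

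By the overlap of their libraries, most of the genes described above fall into 3 sets. Overlap needs no filter, but the clustered genes named for their mean or rise were picked among tested genes. Hist1h4n, Hist1h1e, Hist1h3i, Hist1h3e and Hist1h2ae passed the minimum only through libraries with D, so nothing is read from their place. Of all genes, 38.7% lay higher and 48.4% lower without overlap in NP-D@M against NP@M, and 10.7% and 63.7% with read totals. For Hist1h4n, Hist1h2bc, Hist1h4i, Hist1h1e, Hist1h3i, Hist1h3e and Hist1h2ae the 3 libraries of NP-D@M lay above the 3 of NP@M with both scalings, and for H3f3b, H1f0 and H2afy2 below. Hist1h1c, H2afz, H3f3a and H2afv lay higher as deposited and overlapped with read totals. H2afy and Hist2h2be lay higher as deposited and lower with read totals. The same split was seen in NP-D@MP against PBS for these genes, except that H2afy2 overlapped there as deposited.

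**Figure D4:**
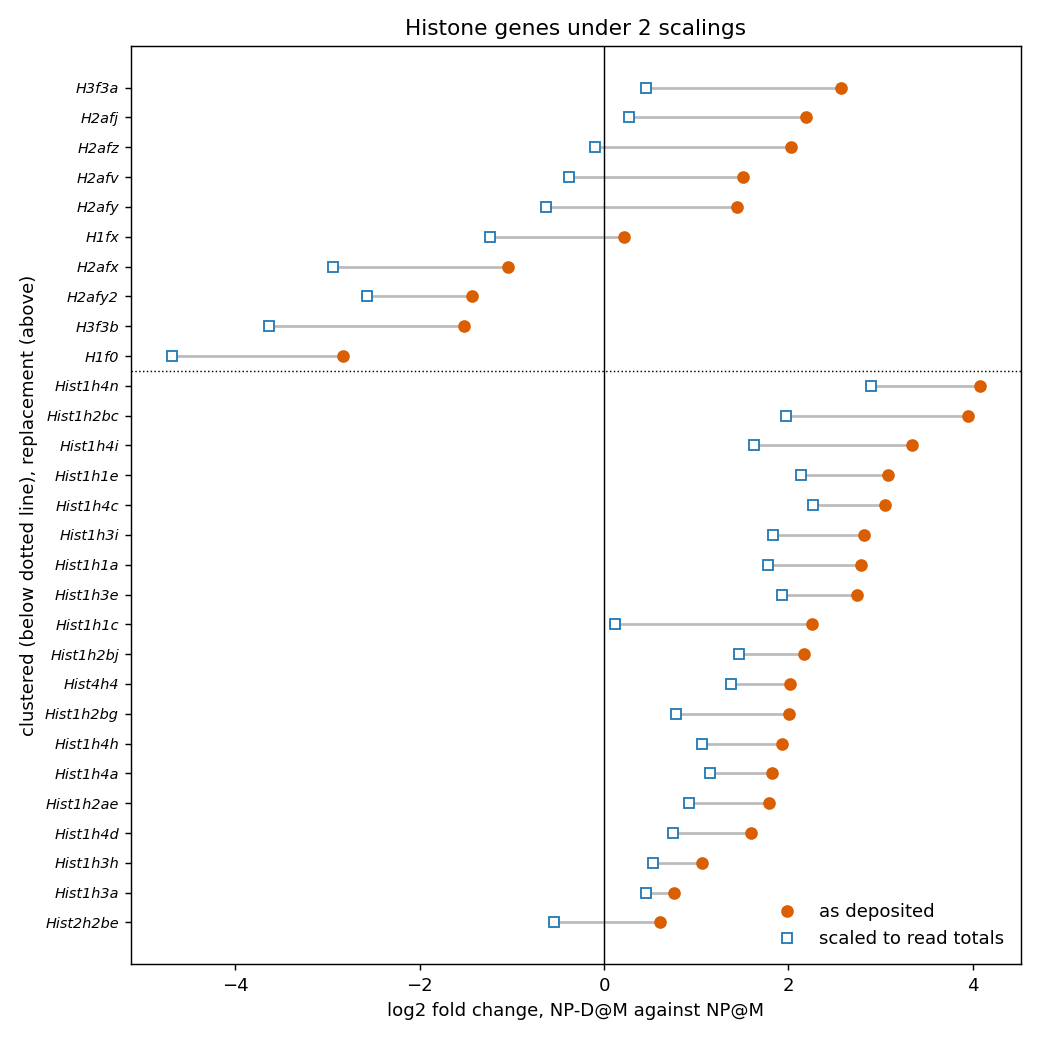
Log2 fold change of NP-D@M against NP@M for replacement genes (above the dotted line) and the 19 clustered genes tested under both scalings (below), as deposited (filled circles) and with read totals (open squares), joined by a line for each gene. The clustered genes shown had to pass the minimum of 1 FPKM, which 24 of the 27 tested as deposited did only through libraries with D, so their position above 0 is not to be set against that of the replacement genes. For each gene the square lies below the circle, and for Hist2h2be, H2afy, H2afz, H2afv and H1fx it lies on the other side of 0.

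The comparisons within the sets gave no calls among the members. In NP@M against PBS limma called 0 of the 27 tested clustered genes and 0 of the 10 replacement genes, where 0.0116% of all tested genes were called higher and 0% lower. At an unadjusted p under 0.05 there were 0 clustered and 0 replacement genes, and with limma's voom on the recovered reads 2 and 0. Without overlap, 1 of the 39 clustered genes lay higher (Hist1h4d) and 1 lower (Hist1h2bq), against 2.31% and 1.68% of all genes, and 0 replacement genes did. The log2 ratio of clustered over replacement FPKM differed by -0.19 between these group means, within the spread of the libraries. NP-D@MP against NP-D@M gave 0 calls among clustered and replacement genes, where 0% of all were called higher and 0% lower. At an unadjusted p under 0.05 there were 3 clustered genes and 0 replacement genes, and with voom 2 and 0. The smallest p was that of Hist1h3a, an H3 gene with 3, 6 and 1 reads in NP-D@M and 12, 9 and 14 in NP-D@MP (limma, adjusted p = 0.149). Without overlap, 2 of 39 clustered genes (Hist1h3a and Hist1h2ae) and 2 of 10 replacement genes (H2afy and H2afv) lay higher in NP-D@MP than in NP-D@M, against 7.76% of all genes, and 0 lay lower, against 5.76%. The choice to name the genes in these counts came after seeing their values.

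Genes that process, escort or accompany histones were read from 3 lists. Of 16 genes for histone mRNA processing, 11 were tested, and limma called 5 higher and 6 lower in NP-D@M against NP@M (0 and 9 with read totals). Of all tested genes 45.2% were called higher and 46% lower, and with read totals 8.07% and 67.1%, so the counts as deposited are near those of all genes. Their median change was -1.09, and -2.43 with read totals, against 0.16 and -1.43 over all tested genes. Slbp, whose protein binds the stem-loops printed above, stood at 2.53 ± 0.291 FPKM (SD, n = 3) under NP@M and 0.1897 ± 0.0985 under NP-D@M, with a change of -1.57 ± 0.1496 (limma, adjusted p = 2.68e-06) and of -2.65 with read totals. It was lower without overlap in the libraries with D, where clustered histone mRNAs stood higher. Ncbp1 and Ncbp2, the subunits of the nuclear cap-binding complex, went apart. Ncbp1 stood at 11.1 ± 2.14 FPKM (SD, n = 3) under NP@M and 1.97 ± 0.161 under NP-D@M (change -2.01 ± 0.236, limma adjusted p = 1.29e-05), and Ncbp2 at 3.83 ± 0.811 FPKM (SD, n = 3) under NP@M and 20.6 ± 1.46 under NP-D@M (change 2.17 ± 0.172, limma adjusted p = 7.26e-07). With read totals these changes were -3.71 and 0.25.

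Of 37 genes for histone chaperones and exchange, 27 were tested, with 11 called higher and 12 lower by limma (0 and 21 with read totals), near the 45.2% and 46% of all tested genes as deposited and beside 8.07% and 67.1% with read totals. The median change was -0.45, and -2.14 with read totals. Hjurp, the chaperone of the centromeric H3 variant, stood at 4.003 ± 0.491 FPKM (SD, n = 3) under NP@M and 0.203 ± 0.149 under NP-D@M, a change of -2.06 ± 0.153 (limma, adjusted p = 4.83e-07). Ubn1, a subunit of the HIRA complex that deposits H3.3, stood at 6.29 ± 1.897 FPKM (SD, n = 3) under NP@M and 0.382 ± 0.188 under NP-D@M, a change of -2.38 ± 0.209 (limma, adjusted p = 1.54e-06). Tspyl1, of the nucleosome assembly protein family, stood at 7.68 ± 0.0997 FPKM (SD, n = 3) under NP@M and 0.546 ± 0.0844 under NP-D@M, a change of -2.49 ± 0.1298 (limma, adjusted p = 8.48e-08). All 3 were lower without overlap under both scalings. Of 48 DNA replication genes, 27 were tested, with 8 called higher and 16 lower by limma (1 and 21 of 26 with read totals), and a median change of -0.87, or -2.16 with read totals. Cdt1, which loads the replicative helicase at origins, stood at 6.54 ± 1.11 FPKM (SD, n = 3) under NP@M and 0.134 ± 0.174 under NP-D@M, a change of -2.73 ± 0.259 (limma, adjusted p = 2.71e-06). Ccne1, cyclin E1 of the entry into S phase, stood at 4.27 ± 1.08 FPKM (SD, n = 3) under NP@M and 0.379 ± 0.169 under NP-D@M, a change of -1.92 ± 0.205 (limma, adjusted p = 6.12e-06). Rpa3, a subunit of the protein that binds single-stranded DNA, stood at 1.81 ± 0.884 FPKM (SD, n = 3) under NP@M and 20.99 ± 3.52 under NP-D@M, a change of 3.01 ± 0.353 (limma, adjusted p = 1.33e-05) and of 1.27 with read totals (limma, adjusted p = 0.0329). The 16 of 27 and 21 of 26 genes called lower stand beside 46% and 67.1% of all tested genes, and whether the list differs from all genes was not tested.

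Markers of cell types differed between the same libraries. As deposited, 45.2% of all tested genes were called higher and 46% lower in NP-D@M against NP@M, and with read totals 8.07% and 67.1%. The 15 genes of the monocyte and macrophage list summed to 2859 to 4198 FPKM without D and 30910 to 41460 with it, with 12 of 14 tested called higher and 2 lower by limma in that comparison, and 6 higher and 4 lower with read totals. Their median change was 2.85, and 0.70 with read totals. The 13 neutrophil and granulocyte precursor genes in the table, of 15 listed, summed to 1454 to 2398 and 4822 to 7703 FPKM (4 higher, 4 lower of 13). With read totals 0 of them were called higher and 11 lower, with a median change of -2.38 against -0.58 as deposited. The 7 dendritic cell genes of 9 summed to 79.8 to 112 and 485 to 715 FPKM (2 higher, 2 lower of 5, and 1 and 2 with read totals), and the 6 megakaryocyte and platelet genes of 8 to 484 to 1211 and 20400 to 28670 FPKM (4 higher of 4, and 2 higher and 1 lower of 3 with read totals). The T and NK cell, B and plasma cell, erythroid and retina lists had 3, 3, 1 and 1 genes in the table, with sums of at most 4.95, 15.7, 0.175 and 0.143 FPKM in any library. The 1 erythroid and the 1 retina gene in the table stayed near 0. The other genes of these lists are not in the table, so their levels are not known. Markers of myeloid immune cells were abundant. The part of cell make-up in the histone results was not tested.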

How the data were processed

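Values were FPKM per gene as deposited by the authors in 1 table of 11669 genes and 12 libraries. Its header gives no unit, so FPKM was inferred from the values. Times the deposited gene length, 100% of them lie within 0.05 of whole multiples of a library's step, which gave the recovered reads. Bowtie 0.12.2 and mm8 are named, without roles, in the submitters' processing notes. The counting tool, its treatment of shared reads and the annotation are not given in the sources used here. The coordinates of all 49 members equal those of GENCODE M21 on GRCm38, which lists 82 genes with such names. The other 33 were not analysed here.

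Log2(FPKM + 1) was fitted with limma 3.58.1 (trend and robust options) in R 4.3.3 with 4 group means over 12 libraries, for the 8615 genes at 1 FPKM or more in at least 3 libraries. Tests were 2-sided, with Benjamini-Hochberg adjustment over all tested genes of each of 4 comparisons and calls at an adjusted p under 0.05. A fold change on this scale understates that of low genes. Floors of 3 reads cover counting error only. Alternatives were read totals, equal medians, quantile normalization, voom on recovered reads, other filters and pseudocounts, no trend, 6 libraries alone, a log2 fold of at least 1 and leaving out libraries. The fit was tested on simulated data. Python 3.11.15 with pandas 2.3.3, numpy 2.4.6 and matplotlib 3.10.9 did the rest.

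Genes named are all tested replacement genes, the 2 clustered genes of each type with the highest mean, the 3 called members with the largest change each way, the 3 called genes of each list with the smallest adjusted p in NP-D@M against NP@M, and Slbp. The members and lists were chosen with earlier results of these data known. Groups come from the treatment label, and replicate numbers follow the accession order.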

Additional observations from a re-analysis of the deposited data

How the results depend on the processing

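No paired analysis was possible because the labels give the libraries of the 4 groups no shared replicate numbers. Numbers of called clustered genes (higher, lower) and replacement genes (higher, lower) were 26, 0, 4 and 3 in NP-D@M against NP@M and 27, 0, 5 and 3 in NP-D@MP against PBS. Of all tested genes 45.2% were called higher and 46% lower in NP-D@M against NP@M, and 45.7% and 45.8% in NP-D@MP against PBS. With read totals the member counts were 15, 1, 0 and 5 in each, where 8.07% of all were called higher in each and 67.1% and 67.7% lower. Without PBS replicate 3 and NP@M replicate 2 as well, the member counts were 15, 1, 0 and 7, and 14, 1, 0 and 7. A minimum of 5 FPKM left 10 clustered genes called higher in each, since fewer genes were tested. Quantile normalization left 1 and 2 replacement genes called higher. All other alternatives stayed within 1.5 times of these counts, and those for NP@M against PBS and NP-D@MP against NP-D@M stayed at 0 calls in clustered genes when each library was left out. Shares of all genes under the other alternatives are not given here. As 24 of the 27 tested clustered genes passed the minimum only through libraries with D, no result about the class is read from counts that stayed alike.

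The log2 ratio of clustered over replacement genes differed by 2.20 in NP-D@M against NP@M and by 2.09 in NP-D@MP against PBS. It differed by 1.68 and 1.61 as the mean of log2 values of tested members, and by 1.89 and 1.79 with summed reads. Of the 27 tested clustered genes, 24 passed the minimum only through libraries with D, so the mean over tested members is partly fixed in advance. Without the largest member of each class over all libraries (Hist1h1c and H3f3a) the log2 ratio of summed FPKM differed by 4.14 and 4.15. H3f3a itself stood higher with D as deposited, and leaving out H3f3b in its place was not tried. Without Hist1h1c and H3f3a the difference in NP@M against PBS moved from -0.19 to 0.12. Leaving out each library gave 2.06 to 2.35 and 1.91 to 2.20.

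With read totals the log2 fold changes of H2afz, H2afy, H2afv and H1fx turned to -0.10, -0.63, -0.38 and -1.23 in NP-D@M against NP@M and to -0.22, -0.41, -0.40 and -0.59 in NP-D@MP against PBS. With both unlike libraries also left out, H2afz, H2afy, H2afv, H2afj and H1fx stood at -0.12, -0.67, -0.67, -0.68 and -2.02, and at -0.31, -0.51, -0.68, -0.59 and -1.63. H1fx in NP-D@M against NP@M ranged from -0.37 to 0.59 when 1 library was left out, with -0.37 without NP@M replicate 2, alone or with PBS replicate 3. Scaling moves the levels of all genes, and which scaling is right was not tested. Of 707 values of named genes under alternatives, 644 kept their direction and side of the threshold, 31 lost and 12 gained the call, and 20 turned. The 2 libraries left out after seeing the data were chosen for their share of genes at 0 reads.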

Other observations

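The table also holds 4 genes with histone names that it labels as processed pseudogenes and that were not counted among the members. Hist1h2al, on chromosome 13, stood at 12.9, 7.27 and 2.52 FPKM under PBS, 8.76, 5.03 and 7.05 under NP@M, 96.9, 97.4 and 50.5 under NP-D@M and 109, 79.6 and 162 under NP-D@MP. All its libraries with D were above all without. H3f3c, on chromosome 2, stood at 3.395, 1.98 and 3.46 FPKM under PBS, 2.55, 4.08 and 3.103 under NP@M, 25.6, 32.6 and 20.8 under NP-D@M and 20.3, 20.01 and 24.7 under NP-D@MP, and the groups with and without D did not overlap. H3f3a-ps1, a copy of H3f3a on chromosome X, stood at 6.74, 6.01 and 2.7 FPKM under PBS, 6.83, 0.555 and 4.41 under NP@M, 25.96, 29.2 and 23.6 under NP-D@M and 27.1, 32.03 and 52.4 under NP-D@MP. NP@M replicate 2 was its lowest library, as it was for H3f3a. The last copy, H3f3a-ps2 on chromosome 16, had 4 to 16 reads in each library without D and 6 to 17 in each with it. Reads of such copies and of their parent genes cannot be told apart where the sequence is shared.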
